A study of Arabidopsis thaliana with 4 samples.

Results

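AT3G15450 and its relatives form a small Arabidopsis gene family annotated as aluminium-induced proteins with YGL and LRDR motifs, after 2 short runs of amino acids that the proteins share. The family was taken as the loci AT3G15450, AT4G27450, AT5G43830, AT3G22850 and AT5G19140, the last of which carries the symbol AILP1. All 5 had a probe set annotated to that gene alone, out of 13350 genes with such a probe set on the array, and all 5 passed the filter on low signals. AT3G15450 and AT4G27450 were selected on their change with KIN10 against control DNA in these same arrays, where their signals were much higher, and the other members were added for their family name. The KIN10 contrast of the family is therefore given as a description, with no test.

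The proteins are related to wali7, a wheat gene first found in roots exposed to aluminium, and resemble the glutamine-binding domain of class II glutamine amidotransferases, the enzyme group that includes asparagine synthetase. AT3G15450 is among the transcripts used as markers of sugar starvation in Arabidopsis. KIN10 (AT3G01090) is a catalytic subunit of SnRK1, the plant relative of yeast Snf1 and animal AMPK. This kinase is activated when cells are short of energy, as in darkness or low oxygen, and shifts transcription from growth and biosynthesis towards the breakdown of stored material.

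The 4 Affymetrix arrays measured mesophyll protoplasts, which are photosynthetic leaf cells stripped of their walls, after transient transfection. In 2 samples the protoplasts received 1 mg of a plasmid expressing KIN10, and in the other 2 they received 1 mg of control plasmid DNA. All were kept in the light for 6 h before RNA extraction, and each experiment drew its KIN10 and control protoplasts from pooled leaves of 36 plants. The experiments differed in operator, soil, plants, growth chamber, DNA preparation and array facility, so these cannot be told apart from each other within an experiment number. The sources used here do not give the plant accession, the promoter driving KIN10 or the share of transfected cells. KIN10 had no probe set annotated to it alone, and the labels were not checked against its transcript.

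Levels are linear probe set signals as deposited, and a probe set's signal is not comparable with that of another gene. Changes are log2 ratios of KIN10 over control DNA within an experiment, after each array had been centred on its median. A centred value is the log2 signal minus that median. Each mean change is given with the SD over the 2 experiments, which is the only replicate spread available. Of the 13648 probe sets tested, 30.2% were called different with KIN10 by limma at an adjusted p under 0.05, 14.7% higher and 15.5% lower. These counts rest on treating the experiment as a block, with 2006 higher and 2111 lower, against 122 and 51 without the block. When 1 array was left out as well, the higher calls ran from 59 without control array 1 to 697 without KIN10 array 1, and the lower calls from 8 without control array 2 to 358 without KIN10 array 2.

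With KIN10, signals of AT4G27450, AT3G15450, AILP1 and AT5G43830 were higher in both experiments, whereas AT3G22850 differed little. AT4G27450 was on average 37.6-fold and AT3G15450 15.7-fold higher, while AILP1 and AT5G43830 were 2.65-fold and 2.36-fold higher. Across the 13648 tested probe sets, 39% were higher in both experiments, and 6.29% were at least 2-fold higher in both. Of the 5 family genes, 4 were higher in both experiments and 3 were at least 2-fold higher in both. AT3G22850 was the 1 gene lower in both experiments, as were 35.3% of the tested probe sets, and 0 family genes were at least 2-fold lower in both, against 6.4% of the probe sets. After centring, both KIN10 arrays were above both control arrays for 4 of the 5 genes and for 17.7% of the tested probe sets, and below them for 0 of the 5 and for 20.2%. The choice of genes used this contrast, so nothing is read from these counts.

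**Figure D1:**
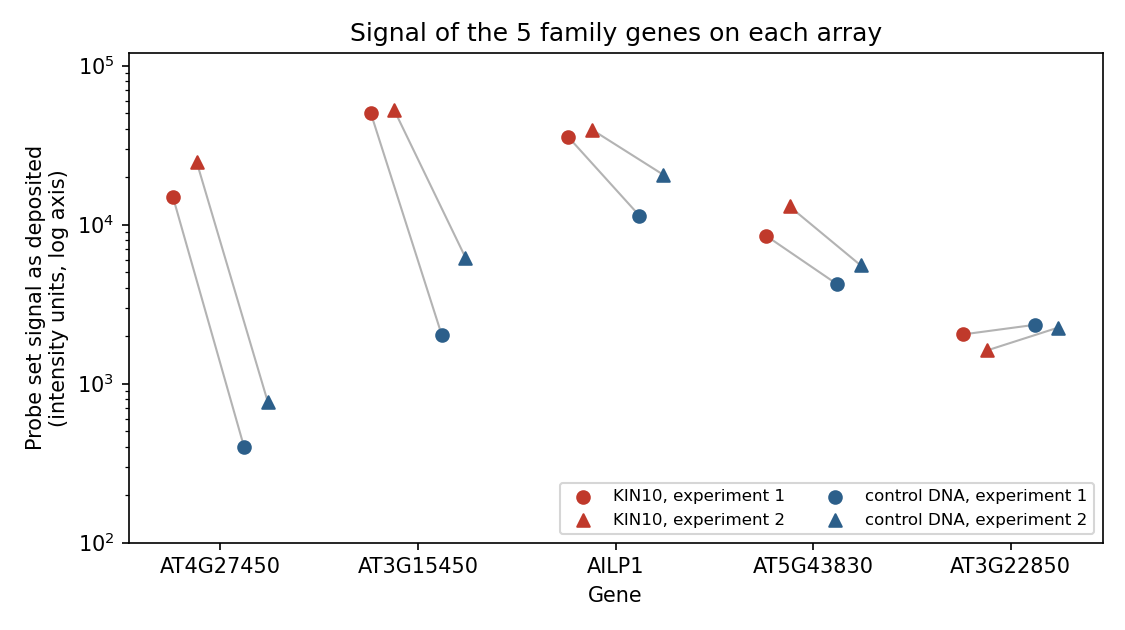
Signal of each family gene on each array, as deposited, on a log axis, with KIN10 in red left of control DNA in blue, circles for experiment 1 and triangles for experiment 2, and a line joining the arrays of an experiment. The KIN10 signals lie above both control signals for AT4G27450, AT3G15450, AILP1 and AT5G43830, and below both for AT3G22850.

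AT3G15450, measured by probe set 258402_at, had signals of 50636 and 52302 on KIN10 arrays 1 and 2, against 2021 and 6201 on control arrays 1 and 2. The KIN10 arrays lay close together and far above both control arrays. The log2 change was 4.56 in experiment 1 and 3.39 in experiment 2, with a mean of 3.98 ± 0.82 (SD, n = 2). The experiments thus gave folds of 23.5 and 10.5, which differ 2.24 times, and 7.6% of the tested probe sets had an SD between experiments at least as large.

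The experiments differed more for AT3G15450 with control DNA than with KIN10. As deposited, its signal on KIN10 array 2 was 1.03 times that on KIN10 array 1, and its signal on control array 2 was 3.07 times that on control array 1. On the centred log2 scale the step between experiments was 0.97 with KIN10, where the median of the tested probe sets was 0.70. With control DNA the step was 2.13, where the median was 0.42, and 1.13% of the tested probe sets had a control step at least as large. Leaving out control array 1 gave a change of 2.91, and leaving out control array 2 gave 5.04.

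With KIN10 the AT3G15450 probe set was among the brightest on the array. On KIN10 array 1, 29 of the 22746 probe sets other than array controls were brighter, and on KIN10 array 2, 20 were. On control arrays 1 and 2, 5067 and 1819 were brighter. The highest signals on KIN10 arrays 1 and 2 were 81268 and 76940, and whether the upper end of the signal range compressed the KIN10 values of this gene was not tested.

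AT4G27450, measured by 253874_at, had signals of 14844 and 24675 on the KIN10 arrays, against 398 and 764 on the control arrays. Every KIN10 signal was far above every control signal. The log2 change was nearly equal in experiment 1 (5.13) and experiment 2 (5.33), with a mean of 5.23 ± 0.14 (SD, n = 2) and folds of 35.1 and 40.3. Both arrays of experiment 2 read higher than their counterparts of experiment 1, by 1.66 times with KIN10 and 1.92 times with control DNA.

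The control signals of AT4G27450 stood at the 45.8th and 60.8th percentile of their arrays, the lowest places of any family gene. Percentiles place a signal within the range of its array and say nothing of abundance. With KIN10 the gene stood at the 97.5th and 98.7th percentile. Adding 16 to every signal before the logarithm changed its log2 change to 5.18. Leaving out 1 array moved its change between 4.41 without KIN10 array 2 and 6.06 without KIN10 array 1.

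AILP1 (AT5G19140), measured by 249922_at, had signals of 35586 and 39548 on the KIN10 arrays, against 11395 and 20625 on the control arrays. Both KIN10 signals were above both control signals, and the control arrays differed more from each other than the KIN10 arrays did. The log2 change was 1.55 in experiment 1 and 1.26 in experiment 2, with a mean of 1.41 ± 0.21 (SD, n = 2). All 4 signals were high on their arrays, between the 96.4th and the 99.6th percentile. As for AT3G15450, the probe set reads a gene with 3 RefSeq transcripts, which it is not known to tell apart. The change was 0.72 without control array 1 and 2.09 without control array 2.

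AT5G43830, measured by 249121_at, had signals of 8532 and 13013 on the KIN10 arrays, against 4223 and 5542 on the control arrays. Both KIN10 signals exceeded both control signals, by a wide margin within each experiment and a narrower one across them. After centring, KIN10 array 1 was at 4.03 and control array 2 at 4.01, so the groups only just separated. The log2 change was 0.92 in experiment 1 and 1.55 in experiment 2, with a mean of 1.24 ± 0.44 (SD, n = 2). The fold was larger in experiment 2 (2.93) than in experiment 1 (1.90), and leaving out 1 array gave changes from 0.47 without KIN10 array 2 to 2.00 without KIN10 array 1.

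AT3G22850, measured by 256829_at, had signals of 2040 and 1617 on the KIN10 arrays, against 2341 and 2250 on the control arrays. As deposited both KIN10 signals were below both control signals. After centring the groups overlapped, with 1.97 and 2.55 for KIN10 and 2.26 and 2.71 for control DNA. The log2 changes were -0.29 and -0.16, with a mean of -0.22 ± 0.09 (SD, n = 2), which is 0.86 times the control signal. Under the 11 other scalings, filters and models the change lay between -0.60 and -0.22. The filters and models among them cannot alter it, so only the scalings bear on its sign. The change turned to 0.0042 without control array 2 and 0.069 without KIN10 array 1. Of the tested probe sets, 35% had a change as low or lower.

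**Figure D2:**
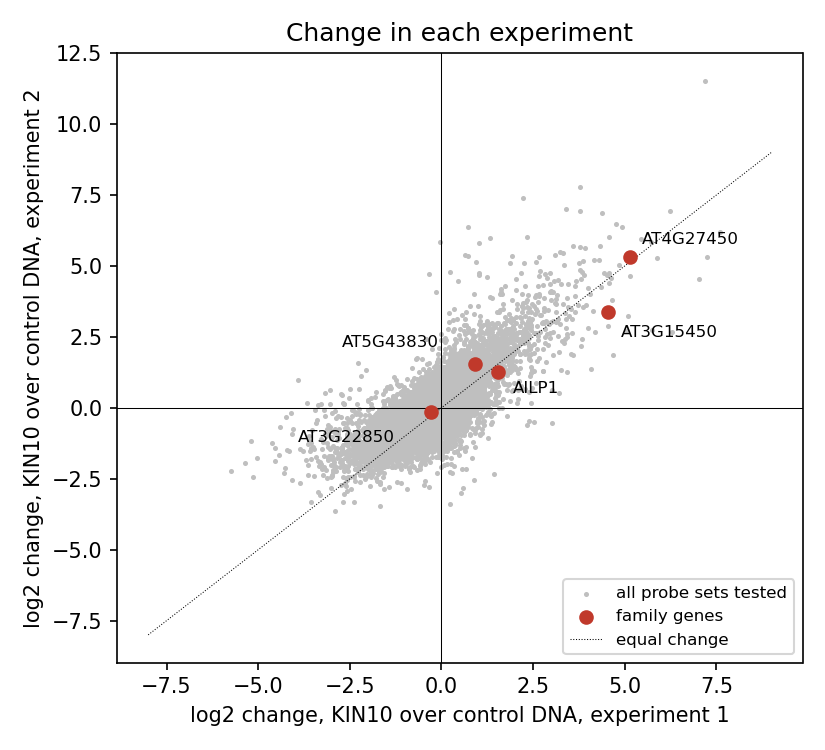
log2 change with KIN10 in experiment 1 (horizontal) and experiment 2 (vertical) for the 13648 tested probe sets in grey and the 5 family genes in red, with a dotted line of equal change. AT4G27450 lies near that line at 5.13 and 5.33, AT3G15450 lies below it at 4.56 and 3.39, and AT3G22850 lies inside the dense centre.

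The mean changes of the family genes ran from -0.22 for AT3G22850 to 5.23 for AT4G27450. Among the tested probe sets, 0.11% had a mean change at least as high as that of AT4G27450, and 0.381% one at least as high as that of AT3G15450. The shares were 5.49% for AILP1, 6.97% for AT5G43830 and 65% for AT3G22850. The median change of the 5 genes was 1.41, and that of all tested probe sets was 0.033. Since AT4G27450 and AT3G15450 were selected on this contrast, nothing is read from their shares or from the family median.

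Of the 10 pairs that can be formed from the 5 genes, 9 had the same order of change in both experiments. Since AT4G27450 and AT3G15450 were selected on their change in these arrays, the order of their pairs with the other genes is no finding. AT4G27450 exceeded AT3G15450 by 0.58 in experiment 1 and by 1.94 in experiment 2 on the log2 scale, and AT3G15450 exceeded AILP1 by 3.00 and 2.14. The exception was AILP1 and AT5G43830, where the change of AILP1 minus that of AT5G43830 was 0.63 in experiment 1 and -0.29 in experiment 2. These neighbours in the order do not differ beyond their spread. AT3G22850 came last in both experiments, where AT5G43830 exceeded it by 1.21 and 1.71.

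A scaling by 1 factor per array moves every gene by the same amount. Centring on the 18 probe sets of the hybridization spike-ins, which are bacterial and phage transcripts added before hybridization, put the median change of all tested probe sets at -0.34, against 0.033 after median centring. On that scale the changes were 4.86 for AT4G27450, 3.60 for AT3G15450, 1.03 for AILP1, 0.87 for AT5G43830 and -0.60 for AT3G22850. Relative to the median of the tested probe sets the median-centred changes ran from -0.26 for AT3G22850 through 1.37 for AILP1 and 3.94 for AT3G15450 to 5.20 for AT4G27450. Quantile normalization, which acts by signal range, moved the genes unequally, to 5.28 for AT4G27450, 3.82 for AT3G15450, 1.16 for AILP1 and -0.27 for AT3G22850.

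**Figure D3:**
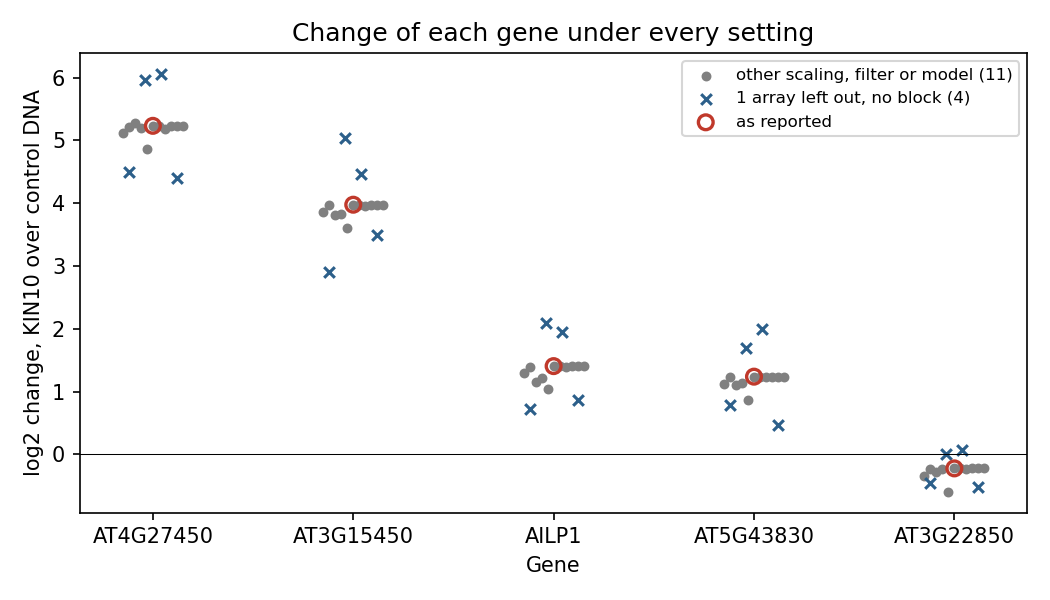
log2 change of each family gene with KIN10 as reported (red ring), under 11 other scalings, filters or models (grey points, several of which leave the change as it was) and with 1 of the 4 arrays left out and no block (blue crosses). AT4G27450 and AT3G15450 stay above 2.9 at every point, AILP1 and AT5G43830 stay above 0, and AT3G22850 lies on both sides of 0.

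Genes with a pattern like that of AT3G15450 were sought among 7375 other named and tested genes. Likeness was the Euclidean distance over the 4 arrays between centred log2 signals, after the mean of each gene had been subtracted. The nearest was AT5G45310 at a distance of 0.296, followed by CCOAMT (0.585), annotated as a caffeoyl-CoA O-methyltransferase gene, and AT1G02660 (0.799). AT1G64500 (0.804) and IVD (0.817), which encodes isovaleryl-CoA dehydrogenase of leucine breakdown, came next. For comparison, AT4G27450 lay at 1.43 from AT3G15450. With 4 arrays in 2 conditions a small distance says only that the signals moved alike here.

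AT5G45310 had signals of 1328 and 1643 on the KIN10 arrays, against 70.6 and 190 on the control arrays. It shared with AT3G15450 the larger change in experiment 1 (4.14) than in experiment 2 (3.43). CCOAMT had signals of 10853 and 11583 on the KIN10 arrays, against 661 and 1182 on the control arrays, and log2 changes of 3.95 and 3.61. IVD had signals of 23814 and 40692 on the KIN10 arrays, against 2003 and 5427 on the control arrays, so its control arrays also stood well apart. Over 9 ways of scaling and filtering the arrays, CCOAMT was among the 5 nearest in 9, AT1G02660 and AT1G64500 in 8 each, AT5G45310 in 7 and IVD in 6. These 9 include the reported setting, and scalings by 1 factor per array cannot alter the distances, so the tally overstates how stable the list is. Quantile normalization kept 2 of the 5 genes and cyclic loess normalization kept 3.

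**Figure D4:**
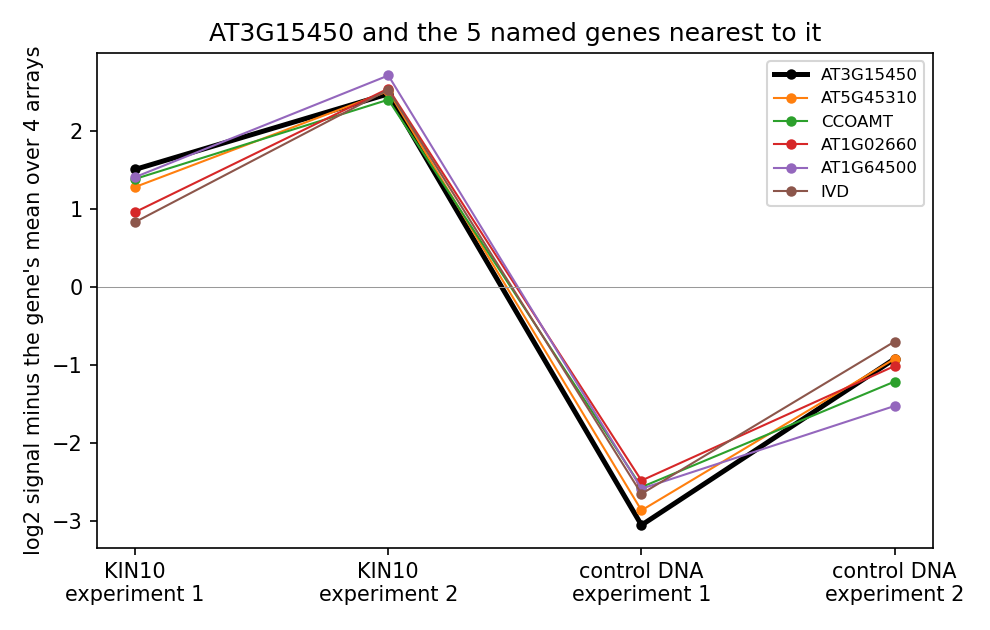
log2 signal minus each gene's own mean over the 4 arrays, for AT3G15450 (thick black line) and the 5 named genes nearest to it, with the KIN10 arrays left of the control arrays. All 6 lines are lowest on control array 1 and highest on KIN10 array 2, and AT3G15450 has the deepest point on control array 1.

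The genes nearest to AT4G27450 were AT2G30600 (distance 0.663) and MCCA (0.716), a subunit of the carboxylase of leucine breakdown. AT2G30600 changed by 4.63 in experiment 1 and 4.56 in experiment 2 on the log2 scale, and MCCA by 4.15 and 5.20. The nearest to AT5G43830 were TUA1 (0.035), an alpha-tubulin gene, with changes of 0.90 and 1.55, and AT5G61670 (0.0877). For AILP1 they were AT5G17650 (0.0479) and AT3G47800 (0.0893), and for AT3G22850 AT1G12120 (0.00903) and AT2G42240 (0.0206). Distances were smaller for the family genes that changed less.

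Few other genes of class II glutamine amidotransferases could be matched to a probe set. The annotation used gave no gene name for 8730 of the 22746 probe sets, so an unmatched gene may still be on the array. Of 10 listed, 1 had a single-gene probe set, and it was tested. This was GFAT, whose enzyme makes glucosamine 6-phosphate, the entry to amino sugar synthesis. It had signals of 205 and 351 on the KIN10 arrays, against 1433 and 819 on the control arrays. GFAT fell, with a log2 change of -2.90 in experiment 1, -0.90 in experiment 2 and a mean of -1.90 ± 1.41 (SD, n = 2; limma adjusted p = 8.08e-09). The change was opposite in sign to that of the 4 family genes that were higher, and differed widely between experiments. Of all tested probe sets 15.5% were called lower, so nothing is read from this 1 gene about the enzyme group. Its adjusted p in limma ran from 5.45e-09 to 0.0184 over the other settings with the block and was 0.14 without it, and with 1 array left out from 0.00019 to 0.764. It kept its call without KIN10 array 2 only. ASN1, the dark-inducible asparagine synthetase gene, had no single-gene probe set.

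Of 22 listed genes of sugar starvation and darkness other than AT3G15450, 3 had a single-gene probe set, 2 were tested and both rose. Of all tested probe sets 14.7% were called higher. The list was chosen with earlier results of these data known, so nothing is read from this count. For the same reason the adjusted p-values and the median change of these genes, given below, are description and not evidence. AKINBETA1, a regulatory beta subunit of SnRK1, had signals of 19859 and 28648 on the KIN10 arrays, against 1867 and 2825 on the control arrays. Its log2 changes of 3.32 and 3.66 were closer to each other than those of AT3G15450 (limma adjusted p = 2.41e-23). The limma adjusted p of AKINBETA1 ran from 4.83e-26 to 6.01e-05 over the other settings with the block, and was 0.0559 when the block was dropped. With 1 array left out as well, its log2 change ran from 2.77 without KIN10 array 2 to 4.22 without KIN10 array 1. MCCA was the other tested gene, with signals of 14146 and 28441 on the KIN10 arrays against 748 and 965 on the control arrays. Its limma adjusted p was 4.47e-44, from 1.4e-50 to 6.01e-05 over the other settings with the block, and 0.0178 without the block. With 1 array left out, no gene of this list was called without control array 1 or without control array 2. EXO was removed by the filter on low signals, with 423 and 80.6 on the KIN10 arrays against 34.9 and 73.2 on the control arrays. The median change of the 2 tested genes was 4.08, against 0.033 for all tested probe sets.

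Of 13 listed genes of aluminium response and tolerance, 2 had a single-gene probe set and 1 was tested. AT5G01720 had signals of 3649 and 3199 on the KIN10 arrays, against 3322 and 4868 on the control arrays, and the groups overlapped. Its log2 change was -0.12 ± 0.24 (SD, n = 2) and it was not called (limma adjusted p = 0.823, from 0.0694 to 0.84 over the other settings with the block). AT1G51340 was removed by the filter.

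Markers of mesophyll were present on every array. Of 15 listed, 5 had a single-gene probe set and were tested, with summed signals between 70353 and 119001 on KIN10 arrays and between 49523 and 73999 on control arrays. Of these 5, PSAN of photosystem I (3.00-fold, limma adjusted p = 1.69e-05) and PRK of the Calvin-Benson cycle (1.87-fold, limma adjusted p = 0.0174) rose. The other 3 were not called and none fell, where 14.7% of all tested probe sets were called higher and 15.5% lower. Over the other settings with the block, RCA and LHCB4.1 were called higher in some and not in others. Their limma adjusted p ran from 0.0303 to 0.545 for RCA and from 0.0223 to 0.505 for LHCB4.1. For SBPASE it ran from 0.0791 to 0.676. When the block was dropped neither PSAN nor PRK was called (limma adjusted p = 0.619 for PSAN and 0.845 for PRK). With 1 array left out as well, the log2 change of PRK turned to -0.076 without control array 1 and -0.047 without KIN10 array 2, against 0.90 with all arrays. That of PSAN ran from 0.22 without KIN10 array 2 to 2.96 without KIN10 array 1, against 1.59. The part of this in the family's values was not tested. Of 4 guard cell markers 1 was measured, FMA, with 479 and 146 on the KIN10 arrays against 586 and 262 on the control arrays, and it was not called (limma adjusted p = 0.393). No epidermis or phloem marker had a single-gene probe set, so cells of those types were not checked. In a bulk sample, fewer cells of a type and less RNA per cell cannot be told apart.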

How the data were processed

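Signals came from 4 Affymetrix arrays, 2 with KIN10 and 2 with control DNA. The deposited values are linear intensity values, made with GCOS 1.0 per the submitters' processing notes. The sources used here do not give its settings. The mean intensity after trimming 2% at each end was between 1500.13 and 1500.15 on each array. Detection calls were not used, and the number of arrays limits the precision.

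One value at or below 0 was raised to its array's smallest positive signal. The log2 signals of 22746 probe sets were centred on each array's median, and the 13648 whose mean reached the 40th percentile were tested. Changes were fitted with limma 3.58.1 in R 4.3.3 (intensity trend, a block for the experiment, Benjamini-Hochberg over all tested). There was 1 residual degree of freedom and a prior of 1311, so p-values rest on a spread pooled over probe sets. That prior depended on the setting. It was 6.10 with cyclic loess normalization and 9.67 with arrays centred on the tested probe sets. Under the latter centring the limma adjusted p was 0.00355 for GFAT and 4.25e-07 for MCCA, against 8.08e-09 and 4.47e-44 as reported. The block follows the design text, which pairs the samples of an experiment, and same-numbered arrays deviated together (Pearson r of 0.705 across probe sets, which are not independent).

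Names came from the platform annotation and a RefSeq table of TAIR10.1, where 13513 had 1 gene name, 503 several and 8730 none in the tables used. Symbols were matched by Entrez number for 13436. Where a gene had several probe sets, the brightest was used. No coordinates or sequences were used. Named genes are the family, the tested genes of the lists and markers, the 5 genes nearest to AT3G15450 and the 2 nearest to each other member. EXO and AT1G51340 were named as well, to account for listed genes that the filter removed. Members and lists were chosen with earlier results of these data known.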

Additional observations from a re-analysis of the deposited data

How the results depend on the processing

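There were 2 arrays per group, which limits the precision of every value. Arrays of an experiment are paired, and with no replicate block 122 probe sets were called higher and 51 lower by limma, GFAT was not called (0 genes of its list lower) and 1 gene of the sugar starvation list was called higher. The spike-in scale gave 1318 higher and 4301 lower, and changes of 4.86 for AT4G27450, -0.60 for AT3G22850 and 1.03 for AILP1, since it shifts all probe sets down. The values as deposited gave -0.34 for AT3G22850, and quantile normalization gave 1.16 for AILP1. Of the 5 genes nearest to AT3G15450, 2 were shared after quantile and 3 after cyclic loess normalization. The cause was not tested. Of 151 values recomputed under settings that kept all arrays, 138 moved by less than the spread or by at most 1.5 times for counts. Many of these could not move, since filters and models leave the change of a gene as it was. The lists held 1 or 2 tested genes, so their counts could take few values. The share that stayed is therefore no measure of stability. With 1 array left out and no block, limma called between 59 and 697 probe sets higher and between 8 and 358 lower, 0 to 1 genes of the glutamine amidotransferase list lower and 0 to 2 of the sugar starvation list higher. The lone array of a group is then assumed to vary like the others. Changes ran from 2.91 to 5.04 for AT3G15450, 4.41 to 6.06 for AT4G27450, 0.47 to 2.00 for AT5G43830, 0.72 to 2.09 for AILP1 and -0.52 to 0.069 for AT3G22850, which turned positive without control DNA replicate 2 (0.0042) and without KIN10 replicate 1 (0.069).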
